A study of Mus musculus with 9 samples.

Results

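Steroid hormones act on the uterus through nuclear receptors, the coactivators those receptors recruit and the chaperone proteins that hold them ready for hormone. The 9 genes followed here are the receptors Pgr, Esr1, Esr2 and Nr3c1, the coactivators Ncoa1, Ncoa2 and Ncoa3, and the FKBP cochaperones Fkbp4 and Fkbp5. They were taken by symbol from a table of 31274 entries, in which all 9 are present. RNA of the whole uterus was sequenced on pseudopregnancy day 4.5, a stage reached by mating to vasectomized males, so that no embryos were present. There were 4 Wnk1f/f and 5 Wnk1d/d mice, young adults of strain C57BL/6 as labelled, each with 1 library. Both genotypes carry Wnk1 alleles with loxP sites on either side of exon 2, and Wnk1d/d mice also carry Cre inserted in the Pgr gene (PGRCre/+), an allele that the name of the controls does not include. Wnk1 loss and the Cre allele in Pgr therefore cannot be told apart. Cre made by this allele acts only in cells that have used the Pgr gene, so most immune and endothelial cells keep intact Wnk1, while ovary and pituitary also recombine. Values are FPKM, which scales fragments to transcript length and to the size of the library; read depth was not used.

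In the uterus, estradiol bound to ESR1 drives growth and secretion of the epithelium, and progesterone bound to PGR restrains that action and prepares the stroma for an embryo. NCOA1, NCOA2 and NCOA3 (the p160 steroid receptor coactivators) bind hormone-loaded receptors and bring in histone acetyltransferases, while FKBP4 and FKBP5 bind the complex of receptor and HSP90. FKBP4 favours the hormone-binding state of PGR, and FKBP5, itself switched on by progesterone and glucocorticoids, lowers the affinity of the glucocorticoid receptor NR3C1 for its hormone.

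The targeted gene was read first. Wnk1 stood at 44.9, 43.4, 47.3 and 45.5 FPKM in Wnk1f/f libraries 1 to 4 and at 33.9, 29.9, 31.0, 30.2 and 31.3 FPKM in Wnk1d/d libraries 1 to 5. All 5 Wnk1d/d libraries lay below all 4 controls, as their labels have it, with means of 45.3 ± 1.62 FPKM (SD, n = 4) and 31.2 ± 1.62 FPKM (SD, n = 5). The log2 fold change was -0.52 (95% interval -0.65 to -0.39, limma adjusted p = 0.0017). By exact two-sided permutation, p was 0.0079, the smallest that 4 against 5 libraries allow. FPKM is given per gene and does not separate exon 2 from the rest of the transcript, nor recombined cells from others.

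A pair of libraries, chosen with earlier results of these data known, stood apart from the others. Wnk1f/f replicate 4 held liver transcripts, with Alb at 77.7 FPKM against 0.03 to 1.5 FPKM in the other 8 libraries. In Wnk1d/d replicate 4, 1 entry took 70.3% of the summed FPKM, against 6.43% to 13.8% for the top entry of the others, although the median log2(FPKM + 1) of the tested genes was 3.79 there and 3.79 to 3.82 over all 9 libraries. Many counts and estimates below are also given without these libraries.

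Genes with a mean above 1 FPKM in at least 1 genotype were tested, 14728 in all, by limma on log2(FPKM + 1), a scale on which changes of low genes come out too small. A gene is called where the p adjusted over all 14728 genes is under 0.05. Of the 9 receptor, coactivator and cochaperone genes, 8 passed the filter, and limma called 0 of the 8, where it called 22.1% of all genes tested (11.1% higher and 11.0% lower in Wnk1d/d). With the further demand of a 1.5-fold ratio of mean FPKM, the count was 0 of 8 against 10.3% of all genes. At an unadjusted p under 0.05, limma gave 1 of 8 (Esr1) against 38.4% of all genes, and the exact permutation test also gave 1 of 8 (Ncoa3), against 36.0% of all genes. In 0 of the 8 were the genotypes free of overlap, against 19.9% of all genes. Estimates were above 0 for 4 genes and below 0 for the other 4, with a median log2 fold change of 0.05 beside 0.0030 over all genes. A p that misses the threshold does not show equal levels, so the interval of each difference is given below.

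**Figure D1:**
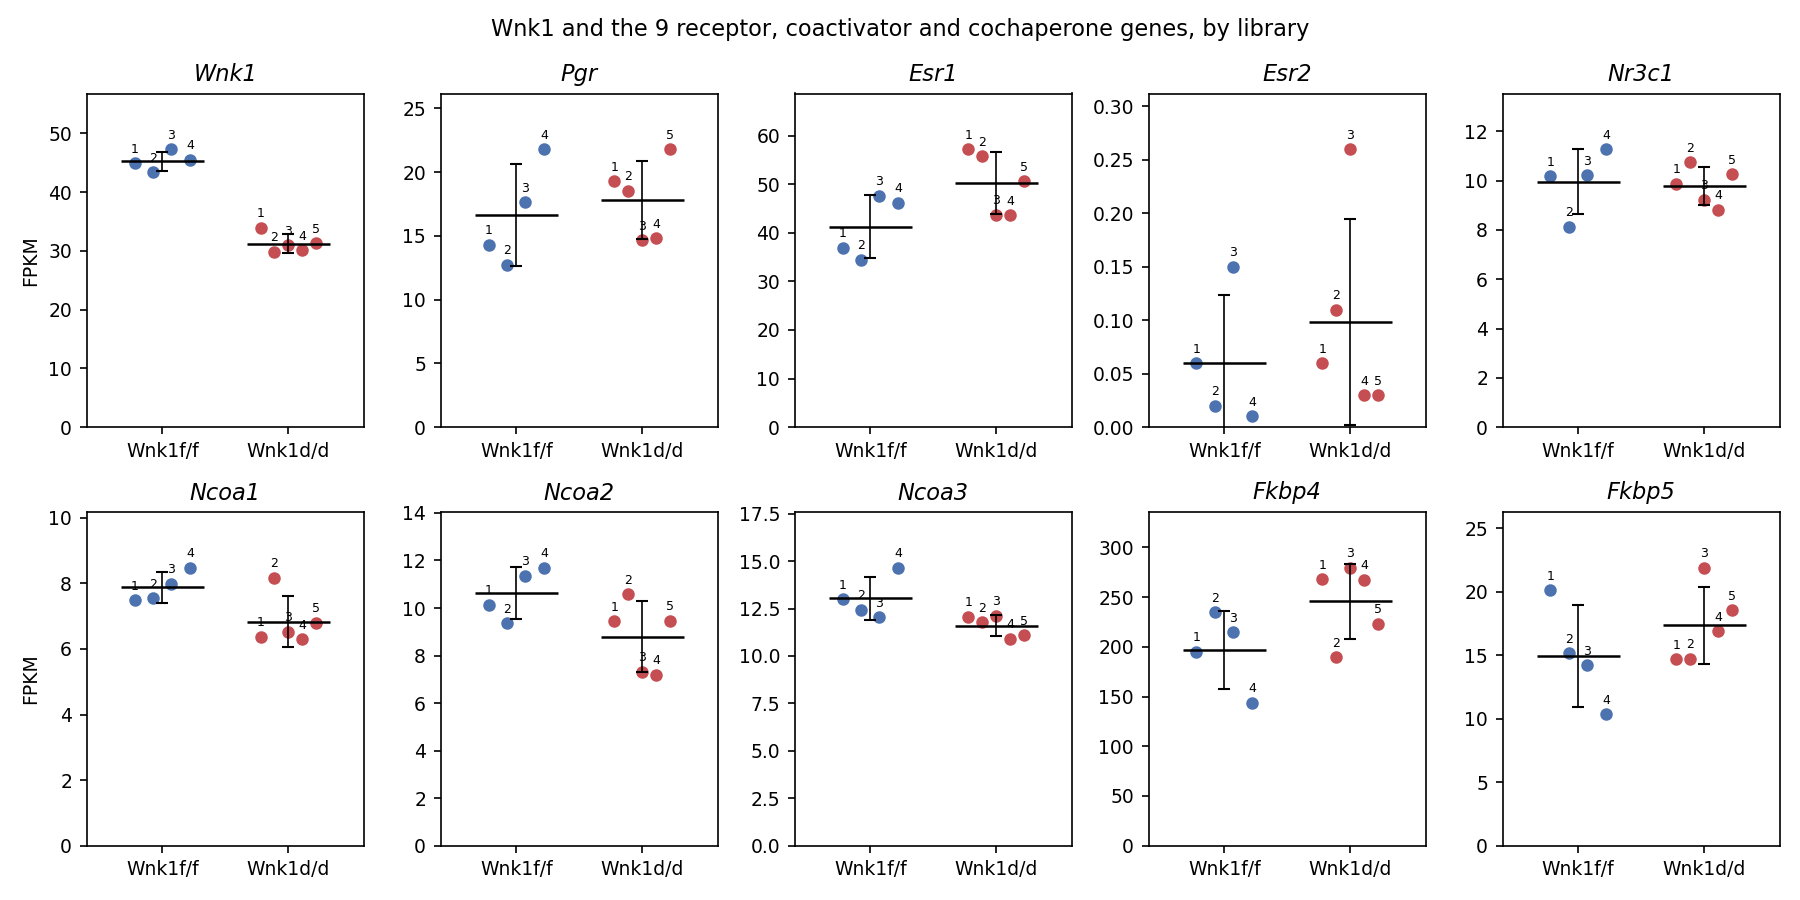
FPKM (vertical axes, from 0) of Wnk1 and the 9 genes in each library, with the replicate number above each point; lines and bars are the mean and SD of 4 Wnk1f/f (blue) and 5 Wnk1d/d (red) libraries. Wnk1 is the only gene shown whose genotypes do not overlap, and Esr2 stays at or under 0.26 FPKM.

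Pgr encodes the progesterone receptor and is also the gene that carries Cre in Wnk1d/d mice. Its FPKM was 14.3, 12.7, 17.6 and 21.8 in the Wnk1f/f libraries and 19.3, 18.6, 14.7, 14.8 and 21.8 in the Wnk1d/d libraries. The top values of the genotypes were nearly the same, Wnk1f/f replicate 2 was the lowest of all 9, and the ranges overlapped almost wholly. Means were 16.6 ± 4.01 FPKM (SD, n = 4) and 17.8 ± 3.06 FPKM (SD, n = 5). The log2 fold change was 0.11 with a 95% interval of -0.26 to 0.48 (limma adjusted p = 0.66; exact permutation p = 0.56), so a fall to 0.5 of the control mean, which is -0.92 on this scale, lies outside the interval. Without Wnk1f/f replicate 2 the estimate was -0.0017, and over the fits that left out 1 library it reached 0.24. FPKM does not say which allele a transcript came from.

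Esr1, the main estrogen receptor of the uterus, was at 36.9, 34.5, 47.6 and 46.2 FPKM in Wnk1f/f and at 57.2, 55.8, 43.8, 43.7 and 50.6 FPKM in Wnk1d/d libraries. Wnk1d/d replicates 1, 2 and 5 lay above every control, while replicates 3 and 4 lay within the control range. The means of 41.3 ± 6.56 FPKM (SD, n = 4) and 50.2 ± 6.42 FPKM (SD, n = 5) gave a log2 fold change of 0.28 with a 95% interval of 0.0013 to 0.56, limma adjusted p = 0.13. Exact permutation put p at 0.087, and the estimate ran from 0.20 to 0.35 over the fits without 1 library, with 0 of these 9 fits calling it.

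Esr2, the second estrogen receptor gene, was at 0.06, 0.02, 0.15 and 0.01 FPKM in Wnk1f/f and at 0.06, 0.11, 0.26, 0.03 and 0.03 FPKM in Wnk1d/d libraries. It fell under the filter and was not tested. Esr1 was thus the only one of the pair with a level above 1 FPKM in any library.

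Nr3c1, the glucocorticoid receptor, was at 10.2, 8.13, 10.2 and 11.3 FPKM in Wnk1f/f and at 9.88, 10.8, 9.22, 8.83 and 10.3 FPKM in Wnk1d/d libraries. All Wnk1d/d values lay inside the control range. The log2 fold change was -0.02, the smallest in size of the 8, with a 95% interval of -0.23 to 0.20 (limma adjusted p = 0.91; exact permutation p = 0.85). Its sign turned in some fits, all with estimates of 0.07 or less, among them the one without Wnk1f/f replicate 4 (0.04).

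The coactivators had estimates below 0. Ncoa1 (SRC-1) was at 7.49, 7.54, 7.99 and 8.48 FPKM in Wnk1f/f and at 6.37, 8.17, 6.53, 6.30 and 6.80 FPKM in Wnk1d/d libraries. Wnk1d/d replicate 2 lay within the controls and the other 4 below all of them. The log2 fold change of -0.18 (95% interval -0.37 to 0.00035) had a limma adjusted p of 0.13 and an exact permutation p of 0.056. Without Wnk1d/d replicate 2 it was -0.24 with a limma adjusted p of 0.026, a call; over all alternatives the adjusted p ranged from 0.026 to 0.42 and this was the only setting with a call.

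Ncoa2 (SRC-2, a coactivator of PGR in the uterus) was at 10.1, 9.36, 11.4 and 11.7 FPKM in Wnk1f/f and at 9.45, 10.6, 7.32, 7.19 and 9.47 FPKM in Wnk1d/d libraries. Wnk1d/d replicates 3 and 4 were the low ones, and the other 3 lay among the controls. Its log2 fold change was -0.26 (95% interval -0.52 to 0.010, limma adjusted p = 0.14, exact permutation p = 0.11). Ncoa3 (SRC-3) was at 13.0, 12.4, 12.1 and 14.7 FPKM in Wnk1f/f and at 12.1, 11.8, 12.1, 10.9 and 11.1 FPKM in Wnk1d/d libraries. Wnk1d/d replicates 2, 4 and 5 lay under the lowest control, replicates 1 and 3 lay just above it, and Wnk1f/f replicate 4 was the highest. Its log2 fold change of -0.15 (95% interval -0.31 to 0.0023) had a limma adjusted p of 0.13 beside an exact permutation p of 0.024, unadjusted. That estimate was -0.10 when Wnk1f/f replicate 4 was left out. At its 3' end Ncoa3 overlaps Sulf2, a gene on the other strand that reached 55.3 FPKM, and the sources used here do not say that strand was used in counting.

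Fkbp4, the cochaperone that PGR needs in the uterus, had the highest level of the 9 genes. It was at 195, 235, 214 and 144 FPKM in Wnk1f/f and at 268, 189, 280, 268 and 223 FPKM in Wnk1d/d libraries. Wnk1d/d replicates 1, 3 and 4 were above all controls and Wnk1f/f replicate 4 was the lowest, with the rest overlapping. Means were 197 ± 39.1 FPKM (SD, n = 4) and 246 ± 38.0 FPKM (SD, n = 5), a log2 fold change of 0.32 (95% interval -0.04 to 0.69, limma adjusted p = 0.17, exact permutation p = 0.10). The estimate was 0.18 when Wnk1f/f replicate 4 was left out, 0.16 (limma adjusted p = 0.39) with quantile normalization of all 9 libraries, and at most 0.42 over the fits without 1 library. Fkbp4 lies on chromosome 6, as Wnk1 does, at 128429735 to 128438677 on mm10 (GENCODE M21), while Wnk1 spans 119923969 to 120038672.

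Fkbp5 was at 20.1, 15.1, 14.2 and 10.4 FPKM in Wnk1f/f and at 14.7, 14.7, 21.9, 16.9 and 18.5 FPKM in Wnk1d/d libraries. Wnk1f/f replicate 4 was again the lowest, and Wnk1d/d replicate 3 the highest. The log2 fold change was 0.22 (95% interval -0.17 to 0.61, limma adjusted p = 0.38, exact permutation p = 0.29), 0.07 without Wnk1f/f replicate 4 and 0.37 (limma adjusted p = 0.14) without Wnk1f/f replicate 1. Wnk1f/f replicate 4 was the lowest of the 9 libraries for 2 of the 8 tested genes and the highest for 4.

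**Figure D2:**
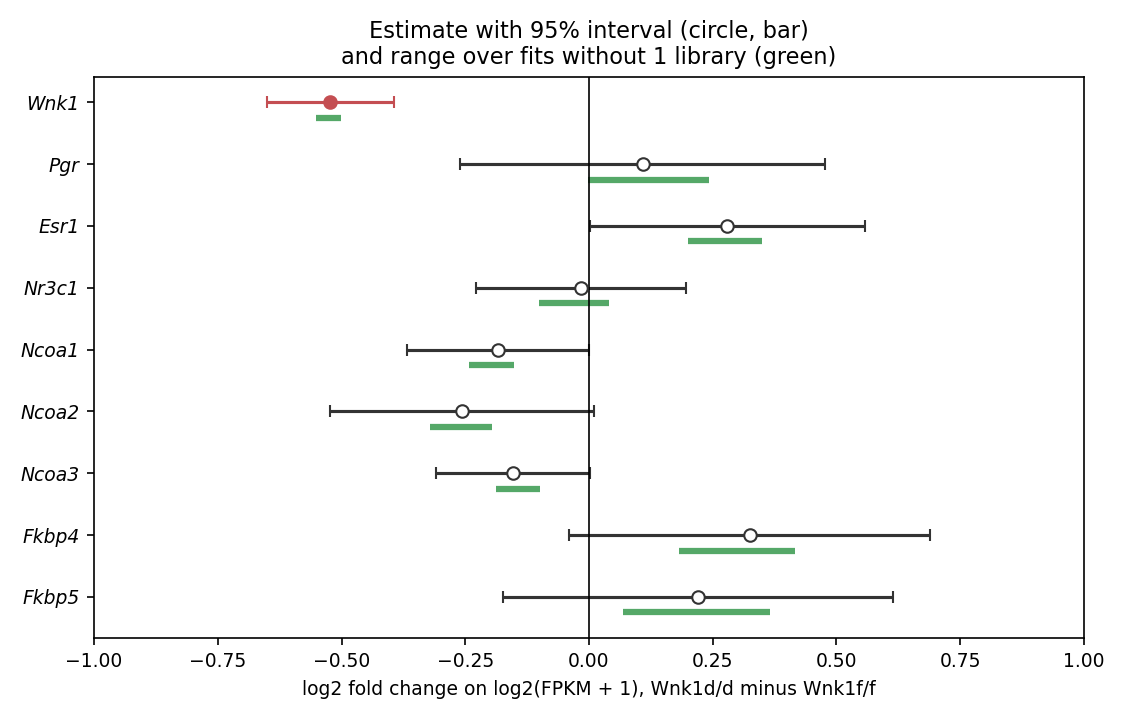
Log2 fold change on log2(FPKM + 1), Wnk1d/d minus Wnk1f/f, of Wnk1 (filled, called) and the 8 tested genes (open, not called), with 95% intervals from limma and, in green, the range over the 9 fits that left out 1 library. Intervals of the 8 genes run from -0.52 (Ncoa2) to 0.69 (Fkbp4).

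The order of levels was nearly the same in both genotypes. In Wnk1f/f uteri it ran Fkbp4 (197 FPKM), Esr1 (41.3), Pgr (16.6), Fkbp5 (15.0), Ncoa3 (13.0), Ncoa2 (10.6), Nr3c1 (9.96), Ncoa1 (7.88) and Esr2 (0.060), as means. In Wnk1d/d uteri Nr3c1 (9.79 FPKM) stood above Ncoa2 (8.80 FPKM). Fkbp4 and Esr1 were clear of each other and of all other genes in every library. Pgr, Fkbp5 and Ncoa3 overlapped one another in the controls, as did Ncoa2 and Nr3c1.

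By a fixed rule, the genes most like Pgr, Esr1 and Fkbp5 were those with the highest Pearson correlation over the 9 libraries after each genotype mean was subtracted. These are descriptions of 9 shared libraries, without a test. For Pgr they were Zfp37 (r = 0.97), Zfp182 (r = 0.97) and 4932438A13Rik (r = 0.96), and for Esr1 Tab3 (r = 0.99), Abi1 (r = 0.98) and Zfp677 (r = 0.98). These 6 were not called, at limma adjusted p of 0.10 to 0.93. For Fkbp5 they were Anxa3 (r = 0.96), Pif1 (r = 0.95) and Gnaz (r = 0.94), of which Anxa3 (log2 fold change 0.48, limma adjusted p = 0.026) and Gnaz (0.76, limma adjusted p = 0.017) were called higher. Over all tested genes, 37 had r above 0.9 with Pgr, 159 with Esr1 and 17 with Fkbp5.

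The other receptors for steroids and their relatives were 13 genes, of which 7 were tested. Of these 7, 2 were called higher and 1 lower (42.9%, beside 22.1% of all genes). The median log2 fold change was 0.31 over those 7 and -0.05 over all 13 when no filter was used. Esrra, an orphan receptor that binds DNA sites like those of ESR1, rose from 21.8 ± 1.65 (SD, n = 4) to 27.3 ± 1.39 FPKM (SD, n = 5), with a log2 fold change of 0.31 (SE 0.07, limma adjusted p = 0.013). Paqr7, a membrane progestin receptor, fell from 4.85 ± 0.515 (SD, n = 4) to 2.81 ± 0.695 FPKM (SD, n = 5), with a log2 fold change of -0.63 (SE 0.13, limma adjusted p = 0.012). Pgrmc2 was called higher (log2 fold change 0.31, limma adjusted p = 0.032) but in only 3 of the 9 fits without 1 library. Pgrmc1, the most abundant gene of the list, was at 134 ± 6.05 (SD, n = 4) and 113 ± 11.95 FPKM (SD, n = 5) and narrowly missed the threshold (limma adjusted p = 0.054). Nr3c2, Gper1, Paqr6, Paqr9, Esrrb and Esrrg fell under the filter. Without Wnk1f/f replicate 4 and Wnk1d/d replicate 4 together, limma called 0 of the 7 and gave 3 with an unadjusted p under 0.05; over the fits without 1 library it called 2 to 5, the most (3 higher, 2 lower) without Wnk1d/d replicate 2.

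Of 20 other coactivators, all tested, 2 were called higher and 0 lower, where 22.1% of all genes were called, and 6 had an unadjusted limma p under 0.05. Estimates went both ways, 10 above 0 and 10 below, around a median log2 fold change of -0.01. The calls ran from 1 to 4 over the fits without 1 library, with 2 higher and 2 lower when Wnk1d/d replicate 2 was left out. Ppargc1b, a coactivator of mitochondrial genes, rose from 0.663 to 1.34 FPKM (log2 fold change 0.49, limma adjusted p = 0.015). It passed the filter only through its Wnk1d/d mean, where it was high, and was also called with no filter. Ncoa7 was at 25.1 ± 4.52 (SD, n = 4) and 37.2 ± 7.69 FPKM (SD, n = 5) with a limma adjusted p of 0.042, a call kept in 2 of the 9 fits without 1 library. The most abundant, the RNA helicase gene Ddx5, had 585 and 518 FPKM (limma adjusted p = 0.15), and Prmt1 lay nearest the threshold (limma adjusted p = 0.055). Of 8 corepressors tested, limma called 0, with 1 at an unadjusted p under 0.05 and a median log2 fold change of 0.04. That median was -0.0031 without Wnk1f/f replicate 4. With quantile normalization it was -0.08, with 4 genes at an unadjusted limma p under 0.05. Without Wnk1d/d replicate 2, limma called 1 of the 8, higher. Phb2, the most abundant of them, had 161 and 164 FPKM (limma adjusted p = 0.81), and its sign turned with quantile normalization and without Wnk1f/f replicate 4.

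HSP90 and its partners fold steroid receptors into the state that binds hormone, and FKBP4 and FKBP5 join that complex. Of 21 genes of this machinery, all tested, 3 were called higher and 1 lower, which is 19.0% beside 22.1% of all genes; 17 had estimates above 0, and the median log2 fold change was 0.18. Hspa1b, an inducible HSP70, rose from 20.97 ± 4.76 (SD, n = 4) to 39.6 ± 4.42 FPKM (SD, n = 5), with a log2 fold change of 0.91 (SE 0.15, limma adjusted p = 0.0056), and its neighbour Hspa1a rose with 0.63 (limma adjusted p = 0.016). The pair is nearly identical in sequence, so how fragments were divided between them is uncertain. Ppp5c, a phosphatase with the same HSP90-binding repeats as FKBP4, was called higher (log2 fold change 0.22, limma adjusted p = 0.039), and Ttc4, an HSP90 cochaperone, lower (-0.21, limma adjusted p = 0.026). Those calls held in 2 and 4 of the 9 fits without 1 library. Hsp90ab1, the most abundant, stood at 965 ± 49.1 (SD, n = 4) and 837 ± 45.0 FPKM (SD, n = 5) with a limma adjusted p of 0.10, and Unc45a lay nearest the threshold (limma adjusted p = 0.060).

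Wnk1f/f replicate 4 had the lowest FPKM of all 9 libraries for 14 of the 21 chaperone genes, as it did for Fkbp4 and Fkbp5, and Wnk1d/d replicate 3 the highest for 9. The same control library held the liver transcripts. Without it, 2 of 21 were called, both higher, with a median of 0.12, beside 1739 of 14654 genes over the whole table. Without Wnk1d/d replicate 4 as well, only Hspa1b was called, beside 1142 of 14662 genes. The count went the other way when Wnk1d/d replicate 2 was left out, to 9 of 21, 8 of them higher, with a median of 0.22. In that fit 4216 of 14731 genes were called over the whole table. The part of Wnk1f/f replicate 4 in the chaperone and cochaperone estimates beyond these values was not tested.

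**Figure D3:**
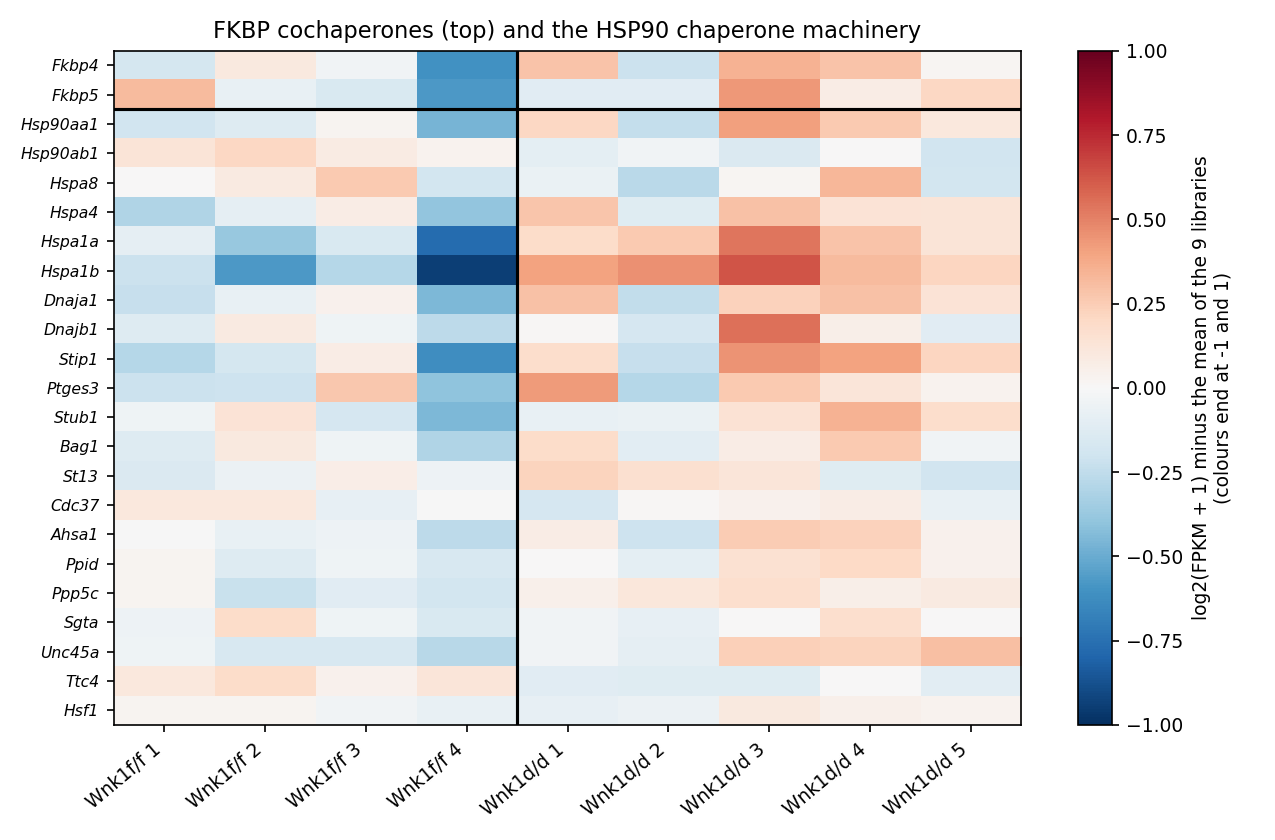
Colours give log2(FPKM + 1) of Fkbp4, Fkbp5 and 21 HSP90 machinery genes (top to bottom) in each library (left to right), minus the mean of the 9 libraries. The column of Wnk1f/f replicate 4 is the darkest blue, with the lowest value of 14 of the 21 genes, and the lines of Hspa1a and Hspa1b change from blue to red at the line between genotypes.

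Among 12 other FKBP genes tested, Fkbp14, a prolyl isomerase of the endoplasmic reticulum, was called higher (12.2 ± 2.90, SD, n = 4, to 18.4 ± 2.80 FPKM, SD, n = 5; log2 fold change 0.57, limma adjusted p = 0.040), in 2 of the 9 fits without 1 library. The remaining 11 were not called, where 22.1% of all genes were called. The list median was 0.08, with 0.03 without Wnk1f/f replicate 4, 0.13 without Wnk1d/d replicate 2 and -0.02 with quantile normalization. Fkbp1a, the most abundant, had 287 and 303 FPKM (limma adjusted p = 0.72), with a sign that turned under quantile normalization (-0.08) and without Wnk1f/f replicate 4 (-0.09).

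Enzymes that make or remove steroids set how much hormone reaches the receptors. Of 10 such genes tested, 3 were called higher and 0 lower (22.1% of all genes were called), with a median of 0.14. The median was 0.26 without Wnk1f/f replicate 1. When Wnk1d/d replicate 2 was left out, 3 were called higher and 2 lower. Akr1c18, the enzyme that turns progesterone into an inactive form, was at 0.29, 0.11, 0.15 and 0.76 FPKM in Wnk1f/f and at 2.34, 6.30, 1.63, 4.40 and 2.04 FPKM in Wnk1d/d libraries. Every Wnk1d/d value was above every control, at a low level, with a ratio of means of 10.2 and a log2 fold change of 1.62 (SE 0.30, limma adjusted p = 0.0083). With means of 0.33 FPKM in Wnk1f/f and 3.34 FPKM in Wnk1d/d, Akr1c18 passed the filter only through Wnk1d/d, where it was high. It was also called with no filter. Akr1c14, a related reductase, rose from 12.7 ± 3.28 (SD, n = 4) to 26.5 ± 8.01 FPKM (SD, n = 5) (log2 fold change 0.99, limma adjusted p = 0.014). Both calls held in all 9 fits without 1 library. Hsd11b2, which inactivates glucocorticoids, was the most abundant, with 243 ± 23.3 (SD, n = 4) and 339 ± 61.5 FPKM (SD, n = 5), and its call (limma adjusted p = 0.048) held in 1 of those 9 fits. Hsd17b4 was nearest the threshold (limma adjusted p = 0.068).

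Response genes of the 3 hormones were then set beside their receptors. These lists were written from general knowledge of the uterus, with earlier results of these data known, and describe rather than test. For estrogen, 16 genes were tested, 11 called higher and 2 lower (22.1% of all genes were called). The median log2 fold change was 1.30 beside 0.0030 over all genes. Sprr2f, an epithelial envelope gene from a family of near copies, was at 4.20, 6.72, 6.00 and 5.35 FPKM in Wnk1f/f and at 1168, 274, 778, 523 and 238 FPKM in Wnk1d/d libraries. Ltf, the secreted lactoferrin, was at 23.2, 42.0, 46.8 and 31.9 FPKM in Wnk1f/f and at 1617, 993, 731, 300.45 and 384 FPKM in Wnk1d/d libraries. Neither gene had overlap, Wnk1d/d replicate 1 was the highest for both, and the log2 fold changes were 6.27 (SE 0.43, limma adjusted p = 0.0003) and 4.23 (SE 0.46, limma adjusted p = 0.0017). Lcn2, a secreted lipocalin, rose by 3.16 on the log2 scale (SE 0.32, limma adjusted p = 0.0014). Igf1, a stromal growth factor, and Myc went the other way, with log2 fold changes of -0.57 (limma adjusted p = 0.0043) and -0.55 (limma adjusted p = 0.015).

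Of the estrogen genes called higher, 10 had promoters that could be matched in RefSeq. Among these 10 genes, 5 held AGGTCA, the repeated unit of an estrogen response element. The search took either strand of the 250 bases before a start, where 14.0% of 32851 promoters held it. A gene counts with a match at any start, while the 14.0% counts single promoters. The 10 were picked by their calls in these data, so the shares are not a test. The full palindrome GGTCANNNTGACC was in 0 of the 10 and in 0.0639% of all promoters. None of the 6 receptor, coactivator and cochaperone genes with a promoter in the table (Pgr, Esr1, Esr2, Ncoa1, Fkbp4 and Fkbp5) held either of them, nor TGTTCT, the half-site shared by PGR and NR3C1, which 16.1% of all promoters held. A match is a description of letters and not of binding. The stretches of these 5 genes are shown for their match; C3, Greb1 and Oxtr were named for it after their values were seen. Each is given 5' to 3' on the strand of its gene (GRCm38.p6, the assembly of mm10), with the match in capitals and up to 50 bases on either side.
Sprr2f, chr3:92364937-92365023, plus strand: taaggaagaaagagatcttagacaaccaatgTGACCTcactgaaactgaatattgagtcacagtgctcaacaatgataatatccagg
Ltf, chr9:111019196-111019291, plus strand: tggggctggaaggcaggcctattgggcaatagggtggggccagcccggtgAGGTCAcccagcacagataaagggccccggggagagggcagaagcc
Oxtr, chr6:112489868-112489973, minus strand: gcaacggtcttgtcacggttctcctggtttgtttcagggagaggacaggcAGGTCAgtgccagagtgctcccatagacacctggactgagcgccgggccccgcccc
Greb1, chr12:16800919-16801024, minus strand: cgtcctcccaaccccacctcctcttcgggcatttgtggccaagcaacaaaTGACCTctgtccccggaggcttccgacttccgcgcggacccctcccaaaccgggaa
C3, chr17:57228324-57228386, minus strand: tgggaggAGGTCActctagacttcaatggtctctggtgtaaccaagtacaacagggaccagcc
In these stretches the match begins 46 bases before the start in Ltf, 88 in Greb1, 98 in Oxtr, 219 in Sprr2f and 243 in C3. All 5 genes were called higher, with log2 fold changes of 4.23, 1.04 (limma adjusted p = 0.019), 1.34 (limma adjusted p = 0.0046), 6.27 and 1.39 (limma adjusted p = 0.033) in the same order. The call of C3 held in 4 of the 9 fits without 1 library.

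For progesterone, 23 genes were tested, 0 called higher and 11 lower (22.1% of all genes were called), with a median log2 fold change of -0.35. Of the 23, 13 had an unadjusted limma p under 0.05. The median was -0.58 without Wnk1f/f replicate 3. Irg1 (named after its values were seen) had the largest estimate in size, 1.86 (limma adjusted p = 0.071). It was called higher without Wnk1d/d replicate 2 and without Wnk1f/f replicate 3, each left out in turn. Ptch1, the Hedgehog receptor and target in the stroma, was at 80.1, 59.5, 80.6 and 53.6 FPKM in Wnk1f/f and at 35.7, 24.2, 29.8, 46.8 and 44.0 FPKM in Wnk1d/d libraries. Every Wnk1d/d value lay below every control, with a log2 fold change of -0.92 (SE 0.20, limma adjusted p = 0.015). Il13ra2, a decoy receptor for interleukin 13, fell from 34.1 ± 8.17 (SD, n = 4) to 18.0 ± 2.43 FPKM (SD, n = 5) (log2 fold change -0.86, limma adjusted p = 0.0074). Prap1, the most abundant of the list, ranged from 155 to 1745 FPKM in Wnk1f/f and from 137 to 1760 FPKM in Wnk1d/d libraries (limma adjusted p = 0.90), with a sign that turned in several fits. Ihh, the epithelial ligand of PTCH1 and a PGR target (named after its values were seen), ranged from 3.68 to 32.5 FPKM in Wnk1f/f and from 4.72 to 39.6 FPKM in Wnk1d/d libraries (limma adjusted p = 0.76), and its log2 fold change of 0.31 turned to -0.23 without Wnk1f/f replicate 4.

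For glucocorticoids, 15 genes were tested, 1 called higher and 5 lower (22.1% of all genes were called), with a median of -0.11. Over the fits without 1 library that median ran from -0.25 (without Wnk1f/f replicate 3) to -0.02 (without Wnk1d/d replicate 5). The progesterone list shares 2 of the 15, and neither was called. The balance depended on single libraries, with 4 higher and 6 lower when Wnk1d/d replicate 2 was left out and 4 higher and 4 lower when Wnk1f/f replicate 2 was. Tsc22d3 (Gilz), a direct target of NR3C1 in many tissues, was at 146, 149, 116 and 110 FPKM in Wnk1f/f and at 81.2, 80.4, 67.5, 73.4 and 54.8 FPKM in Wnk1d/d libraries, without overlap (log2 fold change -0.86, SE 0.14, limma adjusted p = 0.0055). Pdk4 (-1.06, limma adjusted p = 0.016) and Sult1a1 (-0.60, limma adjusted p = 0.011) also fell. Nfkbia, the inhibitor of NF-kB, rose from 90.1 ± 3.96 (SD, n = 4) to 154 ± 22.4 FPKM (SD, n = 5) (log2 fold change 0.76, limma adjusted p = 0.0028), and Mt1, the most abundant over the 9 libraries though not in Wnk1d/d alone, was not called (limma adjusted p = 0.11).

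**Figure D4:**
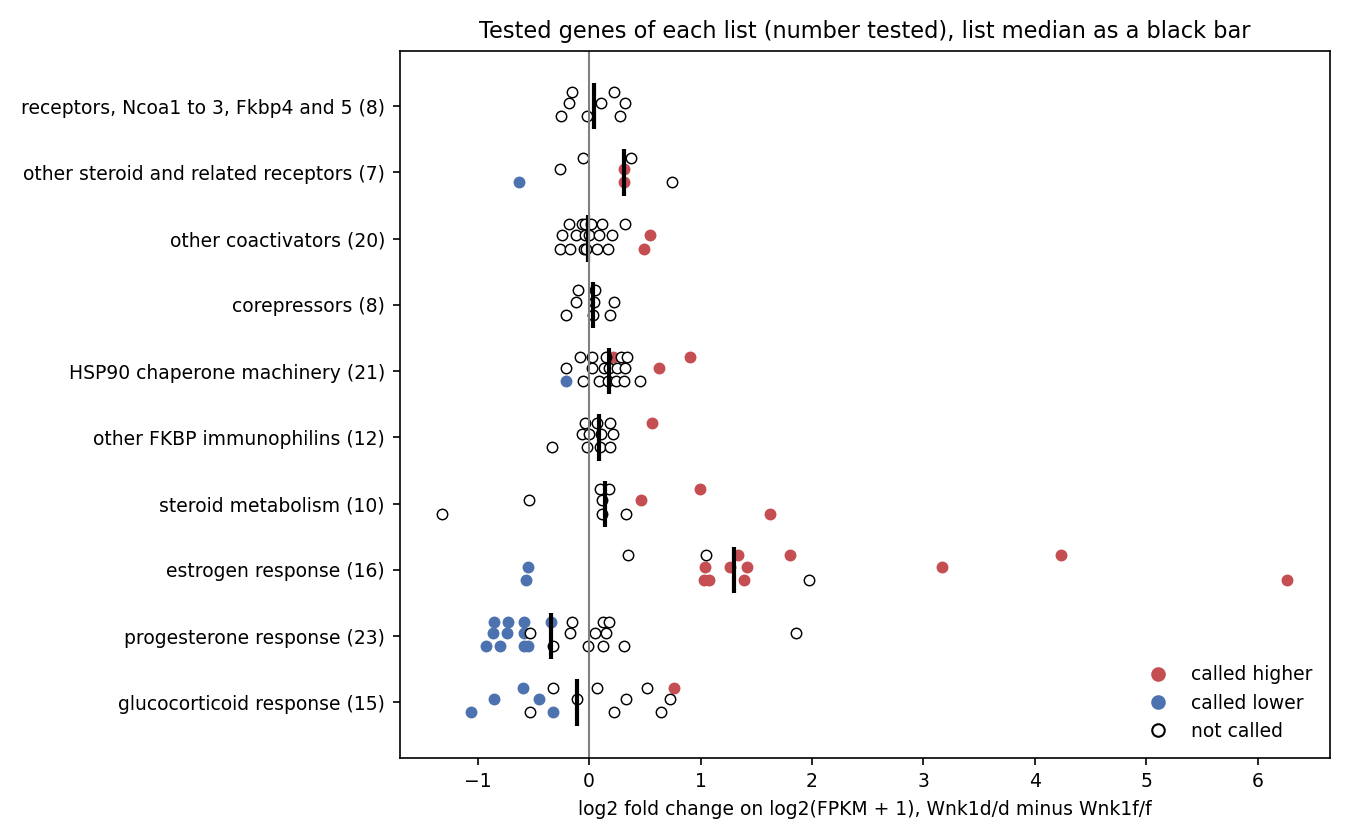
Log2 fold change on log2(FPKM + 1) of each tested gene (points) by list, with the number tested in brackets, the list median as a black bar and the median of all 14728 genes as a grey line. The median is 1.30 for the estrogen list and -0.35 for the progesterone list, while the receptors, coactivators and cochaperones lie between -0.26 and 0.32.

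Without Wnk1f/f replicate 4 and Wnk1d/d replicate 4 together, limma called 12 of 16 estrogen genes (10 higher), 10 of 23 progesterone genes (0 higher) and 3 of 15 glucocorticoid genes (1 higher), with 1142 genes called over the whole table in place of 3249. With only Wnk1f/f replicate 4 left out, these counts were 13, 10 and 6, with 1739 genes called over the whole table.

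Receptor and response levels were then set side by side by library. The mean log2(FPKM + 1) of the 16 estrogen genes was 4.01 to 4.18 in the Wnk1f/f and 5.44 to 6.16 in the Wnk1d/d libraries, at Esr1 levels of 34.5 to 47.6 and 43.7 to 57.2 FPKM. The 23 progesterone genes had means of 4.90 to 5.19 in the Wnk1f/f and 4.79 to 4.92 in the Wnk1d/d libraries, at Pgr levels of 12.7 to 21.8 and 14.7 to 21.8 FPKM. For the 15 glucocorticoid genes the ranges were 5.62 to 5.89 and 5.59 to 5.77. Beside the called changes of the estrogen and progesterone lists, the intervals were -0.26 to 0.48 for Pgr, 0.0013 to 0.56 for Esr1 and -0.23 to 0.20 for Nr3c1. Whether receptor levels have a part in the altered response genes was not tested; receptor protein, its place in the cell and hormone concentrations were not analysed here.

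**Figure D5:**
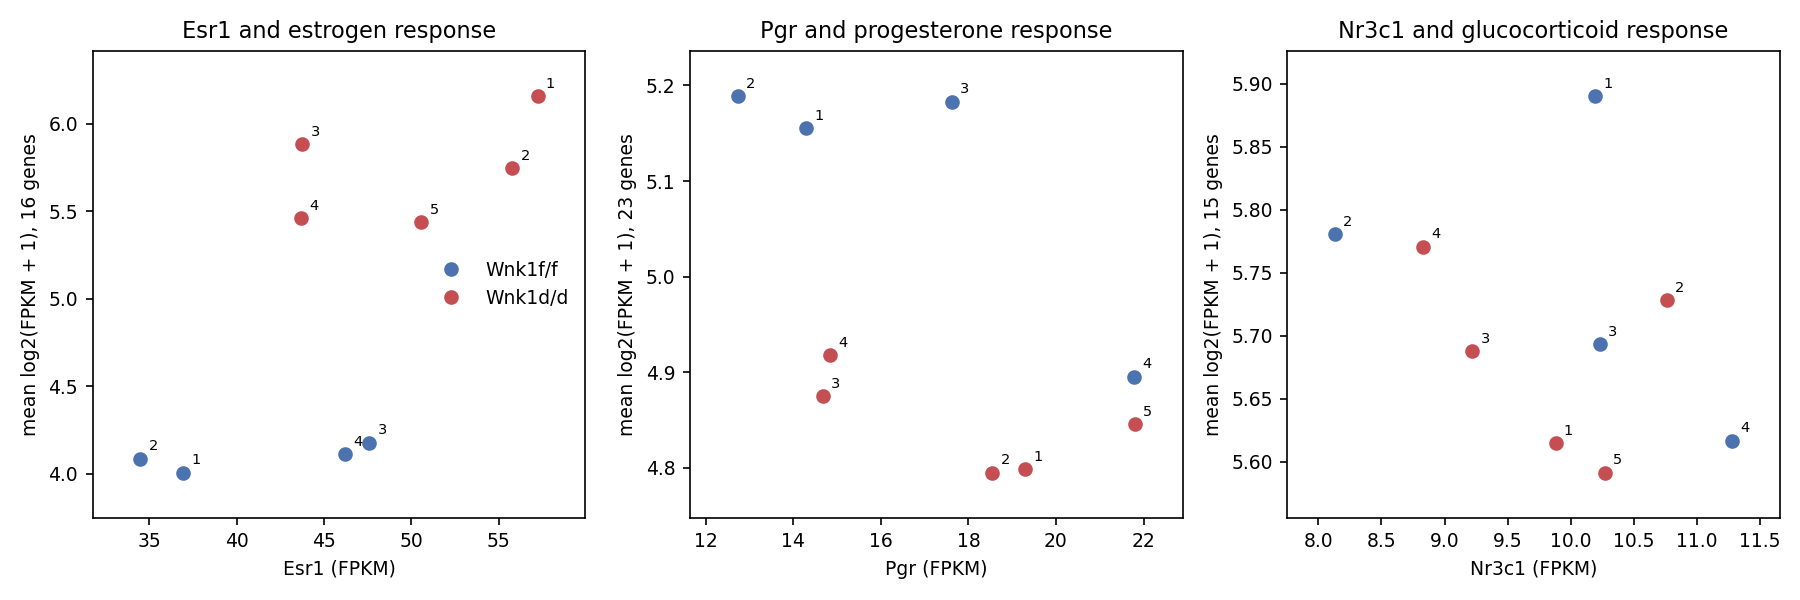
Receptor FPKM (horizontal axes) and the mean log2(FPKM + 1) of the tested response genes of its hormone (vertical axes) in each Wnk1f/f (blue) and Wnk1d/d (red) library, numbered by replicate; axes do not start at 0. The estrogen means separate the genotypes (4.01 to 4.18 against 5.44 to 6.16) at overlapping Esr1 levels, and the progesterone means overlap, with Wnk1f/f replicate 4 (4.90) below Wnk1d/d replicate 4 (4.92).

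Whole-uterus RNA mixes cell types that differ in these receptors, and here fewer cells of a type and less RNA per cell cannot be told apart. Besides the most abundant gene of each marker list, markers were named after their values were seen. That rank is by the mean of all 9 libraries, and within a genotype another gene led among the markers of epithelium, glands, stroma, endothelium, liver, ovary and oviduct, and fat. Calls in these lists stand beside 22.1% of all genes. Over the whole table, limma called 1739 of 14654 genes without Wnk1f/f replicate 4 and 1142 of 14662 without Wnk1d/d replicate 4 as well. Without Wnk1d/d replicate 2 it called 4216 of 14731. Smooth muscle markers were called higher for 8 of 8 genes, with summed levels of 6755, 4375, 5532 and 3014 FPKM in Wnk1f/f and 9895, 7572, 11185, 14210 and 13655 FPKM in Wnk1d/d libraries, Tagln the most abundant. Without Wnk1f/f replicate 4 limma called 5 of these 8, all higher, and without Wnk1d/d replicate 4 as well, 4. Stroma markers were called lower for 5 of 7 and higher for 1 (Col6a3), with sums of 1929 to 2271 FPKM in Wnk1f/f and 1652 to 1977 FPKM in Wnk1d/d libraries, Vim the most abundant; Hand2, Hoxa10 and Hoxa11 are shared with the progesterone list. Endothelial markers were called lower for 6 of 8 (0 higher), with sums of 472 to 510 FPKM in Wnk1f/f and 189 to 393 FPKM in Wnk1d/d libraries, Pecam1 the most abundant. The count was 4 of 8 without Wnk1f/f replicate 4 and 3 of 8 without Wnk1d/d replicate 4 as well, against 8 of 8 without Wnk1d/d replicate 2.

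Epithelial sums of 1136 to 1693 FPKM in Wnk1f/f and 1290 to 1959 FPKM in Wnk1d/d libraries overlapped, with Cldn3 the most abundant marker. Of 10 epithelial markers, 3 were called higher and 0 lower, beside 22.1% of all genes. Limma called 1 of them without Wnk1f/f replicate 4, and 0 (with 10 tested) without Wnk1d/d replicate 1, Wnk1d/d replicate 3 or Wnk1f/f replicate 1, each left out in turn, or with no filter. Gland markers were called lower for 3 of 6 and higher for 1, with sums of 6593 to 10400 FPKM in Wnk1f/f and 828 to 2730 FPKM in Wnk1d/d libraries. Prss29 was the most abundant, while Foxa2, which defines gland cells, was not called. These sums do not count glands. The study reported more glands per section and more Foxa2 RNA by quantitative PCR in Wnk1d/d uteri. The gland markers called lower were 2 without Wnk1f/f replicate 4 and 1 without Wnk1d/d replicate 4 as well. Limma called 0 of 7 leukocyte markers (1 at an unadjusted p under 0.05), with Lyz2 the most abundant and sums of 204 to 380 FPKM in Wnk1f/f and 218 to 257 FPKM in Wnk1d/d libraries. It also called 0 of 6 liver markers (1 at an unadjusted p under 0.05), whose sum was 132 FPKM in Wnk1f/f replicate 4 and 6.52 to 26.2 FPKM in the others; Alb was the most abundant through Wnk1f/f replicate 4 alone. Without that library 2 liver markers passed the filter and 1 was called higher.

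Ovary and oviduct markers had 1 of 4 called, Ovgp1, an oviduct glycoprotein gene and the most abundant of them, which was higher (log2 fold change 2.07). Their sums were 27.5 to 35.0 FPKM in Wnk1f/f and 47.5 to 102 FPKM in Wnk1d/d libraries, and Cyp11a1, which starts steroid synthesis, reached 13.9 FPKM in Wnk1d/d replicate 3 and 4.23 FPKM or less in the other libraries. Fat markers stayed under 1 FPKM in every library, with Adipoq the most abundant and Lep at 0 throughout. The markers of epithelium, glands, stroma, muscle and vessels that define a uterus were all present. The part of these shifts in the values of the receptors, coactivators, cochaperones and response genes was not tested.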

How the data were processed

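Uterine RNA of 4 Wnk1f/f and 5 Wnk1d/d mice was measured by RNA-Seq. The authors filtered reads by quality, aligned them to mm10 with TopHat2 2.0.4 and computed FPKM per gene with Cufflinks 2.0.2 per the labels, and deposited 1 table of FPKM to 2 decimals with replicates kept apart and 0 columns of other samples. The gene annotation and strand setting are not given in the sources used here. Cuffdiff, the test of the study, needs reads and was not run.

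FPKM was used as deposited. Genes with a mean above 1 FPKM in at least 1 genotype were tested on log2(FPKM + 1) with limma 3.58.1 in R 4.3.3 (lmFit, then eBayes with a mean-variance trend, samples unpaired). Adjustment of p over 14728 genes was by Benjamini-Hochberg at a threshold of 0.05. The limma step was tested on simulated data, with an outcome that is not given here. Single genes were compared by exact two-sided permutation over all divisions into 4 and 5 libraries (NumPy 2.4.6, Python 3.11.15). Genes named from each list were the most abundant, up to 3 called higher and 3 called lower with the largest change, and, where few were called, the uncalled gene nearest the threshold; exceptions are marked. Coordinates are from GENCODE M21 and promoters from RefSeq.

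The receptors, coactivators and cochaperones, the lists and the 2 libraries left out together were chosen with earlier results of these data known. Alternatives left out libraries, added a replicate block, dropped the trend or made the estimation robust in limma, scaled libraries to their median or by quantiles, lifted the filter or set it to 5 FPKM, and used 0.1 or 0.01 as pseudocount. Fragment counts were not used, so no interval that needs depth is given.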

Additional observations from a re-analysis of the deposited data

Results flagged for a closer look

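Among 92 groups of libraries of 1 genotype (the genes named by rule, 4 or 5 libraries each), 5 had a library farther from the others than Dixon's 95% value allows, and chance gives about 1 in 20. Ncoa1 was at 8.17 FPKM in Wnk1d/d replicate 2 against 6.30 to 6.80 FPKM in the other Wnk1d/d libraries. Mt1 was low in the same library, at 480.4 FPKM against 691 to 773 FPKM; without it the log2 fold change of Mt1 was 0.63 with a limma adjusted p of 0.049. Wnk1d/d replicate 1 was high for Esrra, at 29.7 FPKM against 26.5 to 27.2 FPKM, and for Nfkbia, at 193 FPKM against 137 to 151 FPKM, and both genes were still called without it. Ttc4 was at 29.4 FPKM in Wnk1d/d replicate 4 against 26.9 to 27.3 FPKM, and its call also held without that library.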

How the results depend on the processing

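Over 19 alternatives, limma called 0 of the tested receptor, coactivator and cochaperone genes in all but 1, and over the fits without 1 library the count was 0 to 1 (Ncoa1, whose estimate ran from -0.24 to -0.15 there, and was -0.13 without both replicates numbered 4). The sign changed for 2 genes, each time at an estimate of 0.07 or less in size: Pgr, -0.0017 (without Wnk1f/f replicate 2) to 0.24 over the fits without 1 library and 0.30 without both replicates numbered 4; and Nr3c1, -0.10 to 0.04 over those fits, 0.00076 with quantile normalization and 0.07 without both replicates numbered 4. Other signs held for these genes. The cause was not tested.

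Genes called over the whole table numbered 3249, from 1739 (without Wnk1f/f replicate 4) to 4216 (without Wnk1d/d replicate 2) when 1 library was left out, 1800 without Wnk1d/d replicate 3, 2051 without Wnk1d/d replicate 5, and 1142 without both replicates numbered 4, where fewer samples were fitted. With the replicate block the count was 220 and the log2 fold change of Wnk1 was -0.52 with a limma adjusted p of 0.052. The shared numbers come from titles of different mice, and same-numbered libraries did not deviate together (correlations of -0.27 to 0.02; 0 of 4 controls were closest to their own number), so the numbers do not pair the samples.

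Of 25 named list genes called, 22 to 25 of those tested were called under every change of pseudocount, filter, scaling or limma prior, 19 to 23 without 1 library, 15 without both replicates numbered 4, and 5 with the replicate block. Of the list genes named by rule, signs turned only for uncalled ones: Fkbp1a (-0.08 with quantile normalization, -0.16 without both replicates, -0.09 to 0.21 without 1 library), Phb2 (-0.11, -0.04 and -0.02 to 0.09) and Prap1 (0.35 with the replicate block, 0.48 without both replicates, -0.87 to 0.35 without 1 library). The precision of 4 against 5 libraries leaves intervals for the receptors as wide as -0.26 to 0.48.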

Other observations

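Within genotypes, Pgr, Esr1, Nr3c1 and Ncoa2 deviated from their genotype means in the same libraries (pairwise Pearson r of 0.78 to 0.89 over 9 libraries). Fkbp4 (r of -0.83 to -0.54) and Fkbp5 (r of -0.69 to -0.41) deviated the opposite way from all 4. Both cochaperones also had negative r with Ncoa1 and Ncoa3 (-0.81 to -0.40). These values share the 9 libraries and are given without a test. The promoters of Pgr, Esr1, Esr2, Fkbp4 and Fkbp5 each held CCAAT on either strand in the 250 bases before a start, as did 33.8% of all promoters, and those of Fkbp4, Fkbp5, Ncoa1 and Pgr held GGGCGG, as did 32.7%. For Esr1, CCAAT was at a start with 47.6% GC and not at its other start, with 59.6% GC. Genes count by any start, and the shares by single promoters. Copies of GGGCGG numbered 7 for Ncoa1, 3 each for Fkbp4 and Fkbp5, and 1 for Pgr. GC content there was 85.6% for Ncoa1, 63.2% for Fkbp4, 68.0% for Fkbp5 and 43.6% for Pgr. The median over all promoters was 52.4%.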
